A study of Mus musculus with 6 samples.

Results

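The genes described here encode the enzymes that make nucleotides, the building blocks of RNA and DNA. They are 36 genes chosen by pathway, and each was represented by the probe set with the highest mean among those annotated with that symbol alone. By this rule 35 of the 36 were measured, among 19938 named genes in all. Impdh2 had no probe set carrying its symbol alone and was not analysed here. The samples were fetal liver RNA of C57BL/6J mouse embryos at E14.5, 3 from Tmod3-/- embryos, labelled as anemic with a small fetal liver, and 3 from Tmod3+/+ embryos, labelled as normal. Each sample was hybridised to 1 Affymetrix MoGene 1.0 ST array. The series text calls the embryos independent, but the labels do not say whether a sample is 1 embryo or a pool. The p-values thus measure only the spread between these samples, and precision is limited by having 3 arrays a group. Tmod3 encodes tropomodulin 3, a protein that binds and caps actin filaments at their pointed ends. The sources used here do not say which part of the gene the knockout disrupts. Values are the authors' RMA values on the log2 scale, called levels below, and a log2 fold change is always knockout minus wild type.

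Nucleotides are built in several branches. Purines are assembled step by step on a ribose phosphate until inosine monophosphate is reached, which is then turned into the adenine and guanine nucleotides, while salvage enzymes return free bases to the pool. Pyrimidines start from carbamoyl phosphate and pass through orotate to the uridine and cytidine nucleotides, and enzymes of folate metabolism supply the carbon units that purine and thymidylate synthesis consume. Ribonucleotide reductase then converts ribonucleotides to the deoxynucleotides needed for DNA, a step that dividing cells such as the erythroid precursors of fetal liver depend on.

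Tmod3 itself read 1.32, 2.36 and 1.30 in the knockout arrays and 4.49, 4.78 and 4.90 in the wild type arrays, so each array matched its label (log2 fold change -3.06, limma adjusted p = 0.0225). The median of an array lay between 1.36 and 1.43, and levels near it are close to the floor of the measurement. The 90th percentile was 3.67 to 3.82 in the knockout arrays and 3.68, 4.07 and 4.13 in wild type replicates 1, 2 and 3. The value for wild type replicate 1 thus lay within the knockout range. The median log2 fold change was 0.01 over all genes, 48.4% of which were below 0. Over the 2545 genes whose mean level was 3 or more, called well expressed below, it was -0.25, with 80.6% below 0, and -0.06 after the arrays were quantile normalized again. The upper parts of the array distributions differ, so a step after RMA that the sources used here do not name is possible, and it would bear on every difference of a bright gene. The marker genes of the tissue were present, with Afp and Alb of hepatoblasts at mean levels of 10.6 and 9.43 in knockout and 10.6 and 10.04 in wild type liver.

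No nucleotide synthesis gene passed the threshold in either direction (limma, adjusted p under 0.05 over all genes), where 0.015% of all genes passed, all lower. Rrm1, Rrm2, Hprt and Ctps2 had the clearest differences, each lower in all 3 knockout samples than in any wild type sample. These 4 of 35 genes (11.4%) compare with 7.1% of all genes and with 21.3% of the well expressed ones. The same 4 genes had an unadjusted limma p under 0.05 on the lower side, where the share was 6.44% of all genes and 26.6% of the well expressed ones. On the higher side there was 0 of 35 by either measure, where 6.14% of all genes had groups without overlap and 2.59% had an unadjusted p under 0.05 (2.2% and 2.28% of the well expressed ones). Of the 12 well expressed members, 3 had groups without overlap on the lower side (25%), and of the other 23, 1 had (4.35%). For the well expressed members the share was thus near the 21.3% of all well expressed genes. No such share was computed for all genes of lower level.

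**Figure D1:**
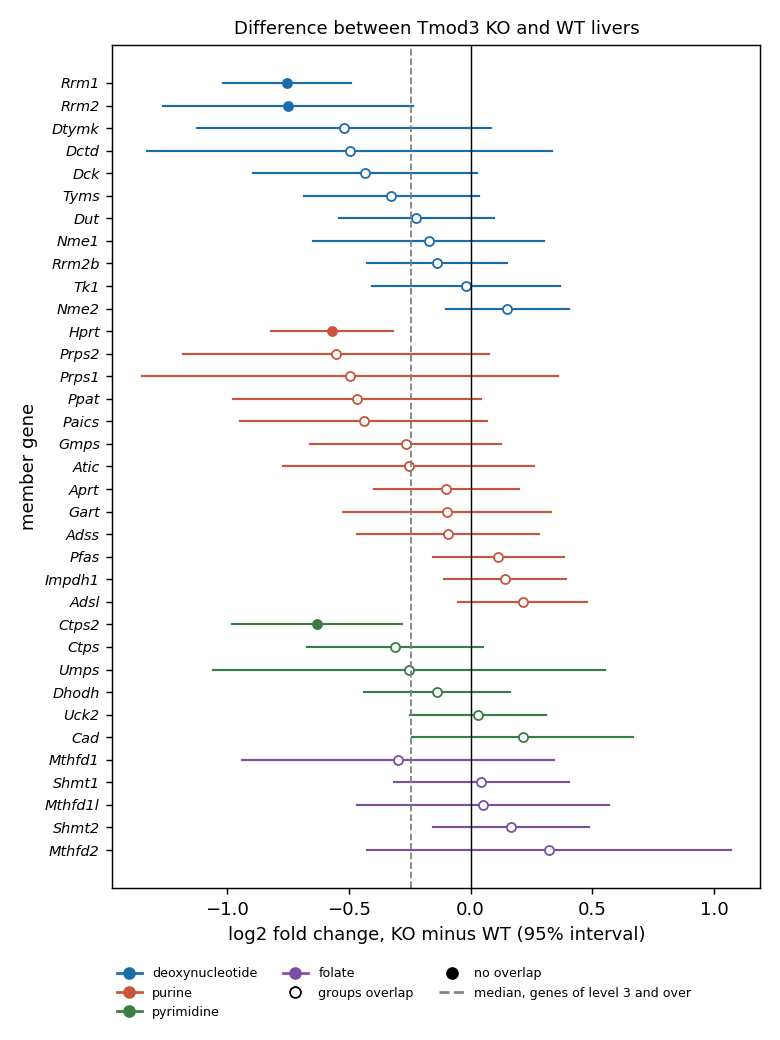
Knockout minus wild type log2 fold change for the 35 measured genes (points) with 95% intervals from limma (lines), coloured by step and sorted within it. Filled points are the 4 genes whose groups do not overlap, Rrm1, Rrm2, Hprt and Ctps2, and the dashed line is the median of -0.25 over well expressed genes.

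By branch, the 11 deoxynucleotide genes had a median log2 fold change of -0.33, with 10 of 11 below 0, and the median was -0.11 after the arrays were quantile normalized again. The 10 include Tk1 at -0.02, whose second probe set had 0.21. For the 13 measured purine genes the median was -0.25, with 10 below 0, and for the 6 pyrimidine genes -0.20, with 4 below 0. Both became positive when every array was centred on its well expressed genes (0.0084 for purine and 0.07 for pyrimidine). The 5 folate genes had a median of 0.05, with 4 of 5 above 0, and it was -0.08 when wild type replicate 1 was left out, -0.02 when knockout replicate 2 was, and -0.0042 with array weights. Over all 35 genes the median was -0.22, with 25 below 0 and 10 above. Quantile normalization left 22 below 0 and a median of -0.10, and centring on well expressed genes, which moved the median of all genes to 0.27, left 15 below 0 and a median of 0.04. By level, the 13 members with means from 2 to 3 had a median of -0.30 where all genes had -0.13, and the 6 members at 6 and over had -0.50 where all genes had -0.18. The 2 members from 3 to 4 went the other way (-0.07 against -0.24), the 3 from 4 to 5 were near all genes of that range (-0.33 against -0.28), and the 1 from 5 to 6 had -0.47 against -0.28. The 10 members under 2 had 0.05 and all genes of that range 0.03. By count, 4 of 10 members under 2 and 10 of 13 from 2 to 3 were below the median of their range. In the next ranges 0 of 2, 2 of 3 and 1 of 1 were, and 5 of the 6 brightest. These counts are a description of these 6 arrays without a test.

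**Figure D2:**
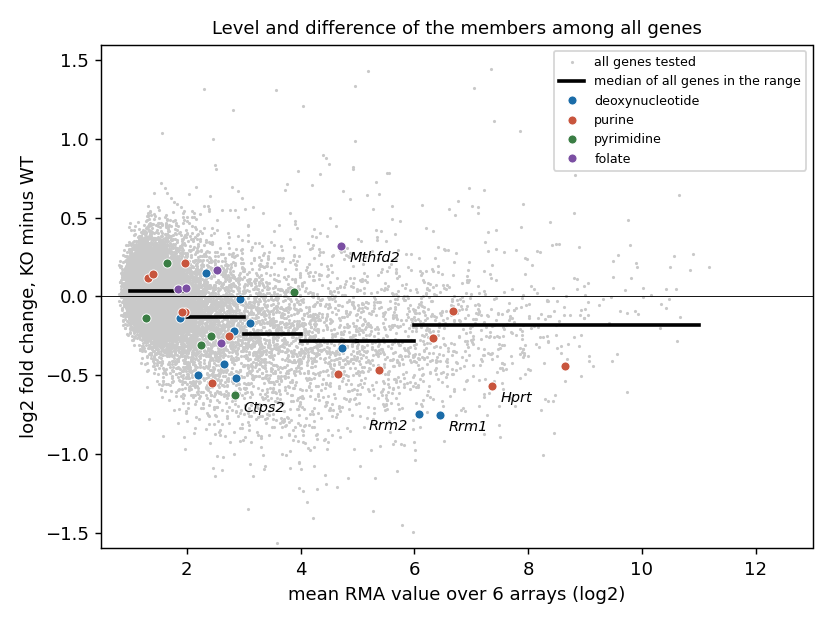
Log2 fold change against the mean level over the 6 arrays for all genes tested (grey) and for the measured nucleotide genes (coloured by step). Black bars are the medians of all genes within each range of level, from 0.03 under a level of 2 to -0.28 between 4 and 6, and a few genes with changes beyond 1.6 in size, Tmod3 among them, lie outside the plot.

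Both subunits of ribonucleotide reductase that serve DNA replication read lower in every knockout sample than in any wild type sample, though neither passed the threshold. Rrm1, the large catalytic subunit, read 6.11, 6.13 and 5.99 in the knockout arrays and 6.71, 6.77 and 7.001 in the wild type arrays. The 3 knockout values lay close together and well under the lowest wild type value. The log2 fold change was -0.75 (SE, the standard error, 0.11), a 1.68-fold difference (limma adjusted p = 0.142). Rrm2, the small subunit made in S phase, read 5.78, 6.02 and 5.34 against 6.07, 6.53 and 6.79. The groups were separated only by the narrow gap between knockout replicate 2 and wild type replicate 1, and its log2 fold change was -0.75 (SE 0.22, limma adjusted p = 0.378). Rrm2b, the p53-inducible small subunit that serves cells outside S phase, read 1.97, 1.80 and 1.65 against 1.84, 1.89 and 2.11. Its mean level of 1.88 was below the upper quartile of the arrays (1.90 to 2.02), which limits what can be seen. Its groups overlapped (log2 fold change -0.14, 95% interval -0.43 to 0.15), and the difference between Rrm2 and Rrm2b was not tested. Rrm1 and Rrm2 had negative values under all 14 alternatives, most of which could not reverse the sign of genes whose groups do not overlap. Renewed quantile normalization, which could, gave -0.60 and -0.57. After it the same 4 genes, and no other member, were separated on the lower side, where 7.54% of all genes were.

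**Figure D3:**
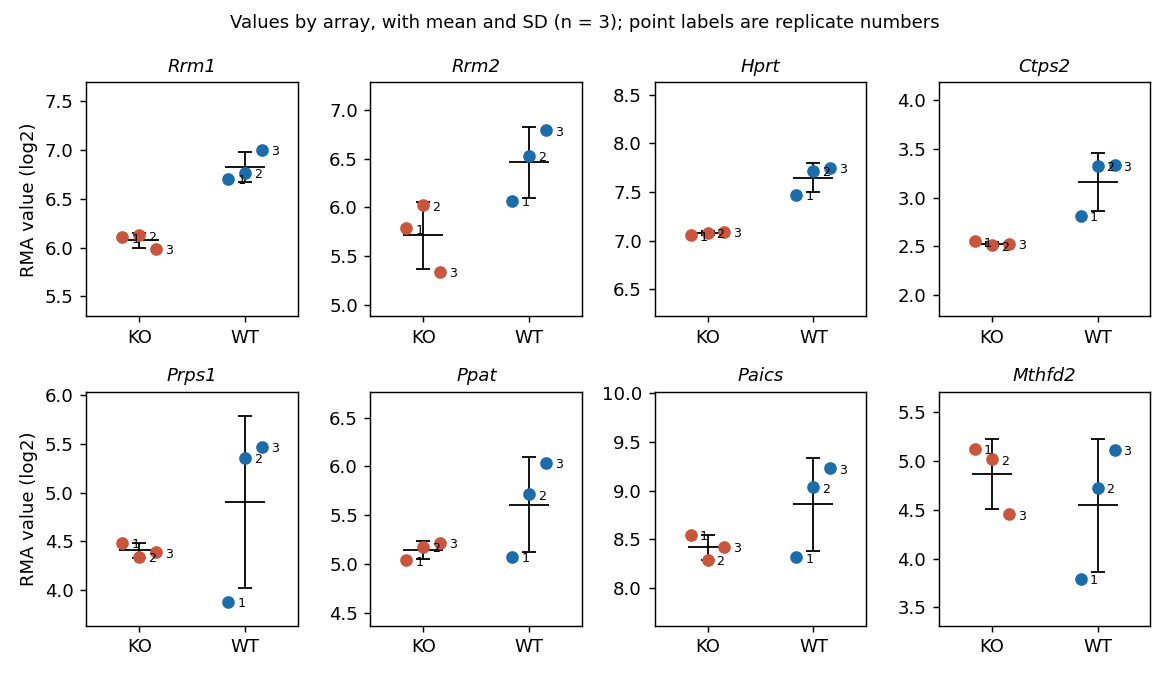
RMA values (log2) of 8 genes in each knockout (red) and wild type (blue) sample, numbered by replicate, with the group mean and SD (n = 3) in black and the same span of 2.4 on every axis. Rrm1, Rrm2, Hprt and Ctps2 in the upper row have no overlap between groups, while in the lower row wild type replicate 1 lies below the knockout samples for Prps1 and Mthfd2 and within their range for Ppat and Paics.

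The start regions of these 4 separated genes are printed to show what they share in sequence. Each window runs from 250 bases before to 50 bases after a start site in RefSeq (build GRCm38.p6), 5′ to 3′ on the gene's strand. Capitals mark exact matches on either strand to the CCAAT box (CCAAT), the E-box (CACGTG) or an E2F site (TTTCCCGC or TTTGGCGC). Rrm1 lies at chr7:102441445-102441744 (plus strand), Rrm2 at chr12:24708004-24708303 (plus strand), Hprt at chrX:52987828-52988127 (plus strand) and Ctps2 at chrX:162901921-162902220 (plus strand, the first of 3 windows listed for that gene).
Rrm1: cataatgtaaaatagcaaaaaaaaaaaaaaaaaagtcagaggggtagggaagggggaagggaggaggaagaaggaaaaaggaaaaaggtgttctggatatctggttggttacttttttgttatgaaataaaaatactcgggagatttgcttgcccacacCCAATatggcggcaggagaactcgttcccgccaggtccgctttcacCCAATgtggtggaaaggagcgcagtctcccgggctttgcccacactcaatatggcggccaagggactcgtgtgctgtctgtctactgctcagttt
Rrm2: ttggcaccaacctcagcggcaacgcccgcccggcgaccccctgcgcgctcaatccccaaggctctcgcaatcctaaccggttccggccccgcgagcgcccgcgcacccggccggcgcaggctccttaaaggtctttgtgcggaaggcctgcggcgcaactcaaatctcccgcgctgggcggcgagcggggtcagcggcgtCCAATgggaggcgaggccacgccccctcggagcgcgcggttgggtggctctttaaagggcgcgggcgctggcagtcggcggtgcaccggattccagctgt
Hprt: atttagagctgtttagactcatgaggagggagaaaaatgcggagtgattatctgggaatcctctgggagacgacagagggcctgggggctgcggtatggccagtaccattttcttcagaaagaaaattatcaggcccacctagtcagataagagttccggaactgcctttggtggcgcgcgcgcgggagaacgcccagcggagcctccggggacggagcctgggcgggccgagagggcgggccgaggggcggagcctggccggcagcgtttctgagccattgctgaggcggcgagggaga
Ctps2: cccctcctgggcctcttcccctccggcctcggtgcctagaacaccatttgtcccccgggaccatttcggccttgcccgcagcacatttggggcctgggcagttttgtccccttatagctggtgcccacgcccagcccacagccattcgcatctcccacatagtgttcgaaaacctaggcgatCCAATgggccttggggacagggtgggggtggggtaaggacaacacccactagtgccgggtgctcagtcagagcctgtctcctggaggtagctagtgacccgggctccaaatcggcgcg
Rrm1 held 2 CCAAT boxes and Rrm2 and Ctps2 held 1 each (the other Ctps2 windows held none), while the Hprt window held none of the motifs searched. A CCAAT box was found in 13 of the 32 members that have a window (40.6%), and 41.1% of all 27025 genes with a window had one. The E-box, the letters bound by MYC among other factors, was found in 5 of 32 members (15.6%) and in 8.09% of all genes. The E2F letters were found in 2 of 32 (6.25%) and in 1.8% of all genes. These are counts of letters in a window, and the other windows of a gene were counted too.

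The enzymes that lead to thymidine nucleotides did not separate the groups. Tyms, thymidylate synthase, read 4.83, 4.27 and 4.59 in the knockout arrays and 4.78, 5.04 and 4.85 in the wild type arrays. Knockout replicate 1 lay within the wild type range, and the difference was -0.33 on the log2 scale (SE 0.16, limma adjusted p = 0.598). Without knockout replicate 2 it was -0.18. Tk1, the thymidine kinase of S phase, read 2.55, 3.13 and 3.09 against 2.98, 3.04 and 2.79, a log2 fold change of -0.02. A second Tk1 probe set read 3.28, 2.90 and 2.54 against 2.77, 2.92 and 2.42, a log2 fold change of 0.21, so the sign depended on the probe set. The 20 named probe sets next in number to the first one held 0 genes of chromosome 11, where Tk1 lies, and 14 of chromosome 8. All 20 neighbours of the second one lay on chromosome 11. The value of Tk1 is therefore uncertain. Of the other 36 probe sets of the members, each had at least 17 of 20 neighbours on the chromosome of its gene.

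Among the remaining deoxynucleotide enzymes, Dtymk (thymidylate kinase) had a log2 fold change of -0.52, Dctd (deoxycytidylate deaminase) -0.50, Dck (deoxycytidine kinase) -0.43 and Dut, which removes dUTP, -0.22. Their groups all overlapped (limma adjusted p from 0.581 to 0.762). For Dctd, wild type replicate 1 read 1.51, lower than any knockout array, and wild type replicates 2 and 3 read 2.97 and 2.86, higher than any. The nucleoside diphosphate kinase genes Nme1 and Nme2 had -0.17 and 0.15. These adjacent genes are close copies of each other on chromosome 11, so their separate values are uncertain.

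The first steps of purine synthesis had wide differences among the wild type samples. Prps1 makes the activated ribose phosphate on which the ring is built, and read 4.49, 4.35 and 4.39 in the knockout arrays against 3.88, 5.36 and 5.47. The knockout arrays agreed closely, while wild type replicate 1 lay below them and replicates 2 and 3 far above (log2 fold change -0.50, SE 0.37, limma adjusted p = 0.768). Without wild type replicate 1 the log2 fold change was -1.01 (limma adjusted p = 0.0337). Its paralog Prps2 had -0.55 with all arrays (limma adjusted p = 0.619), and -0.29 without wild type replicate 3. Ppat, the amidotransferase of the committed step, read 5.04, 5.17 and 5.22 against 5.07, 5.72 and 6.04, so wild type replicate 1 again fell within the knockout range (log2 fold change -0.47, SE 0.22, limma adjusted p = 0.591). Leaving out wild type replicate 1 gave -0.73, and leaving out wild type replicate 3 gave -0.25.

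Paics, the enzyme of 2 later steps of the purine ring, is shown with Ppat because their start sites lie next to each other, a pair chosen after the values were seen. Paics read 8.55, 8.29 and 8.42 in the knockout arrays against 8.32, 9.04 and 9.23, the same order of wild type arrays as for Ppat (log2 fold change -0.44, SE 0.22, limma adjusted p = 0.626). Leaving out wild type replicate 1 gave -0.71, and leaving out replicate 3 gave -0.26. The genes run in opposite directions on chromosome 5 with 276 bases between their RefSeq start sites. Paics starts at 76951302 on the plus strand and Ppat at 76951578 on the minus strand. Each is thus read towards the start of the other, and the bases between the starts are not a gap upstream of both. The windows are chr5:76951529-76951828 on the minus strand for Ppat and chr5:76951052-76951351 on the plus strand for Paics, with the motifs in capitals as above.
Ppat: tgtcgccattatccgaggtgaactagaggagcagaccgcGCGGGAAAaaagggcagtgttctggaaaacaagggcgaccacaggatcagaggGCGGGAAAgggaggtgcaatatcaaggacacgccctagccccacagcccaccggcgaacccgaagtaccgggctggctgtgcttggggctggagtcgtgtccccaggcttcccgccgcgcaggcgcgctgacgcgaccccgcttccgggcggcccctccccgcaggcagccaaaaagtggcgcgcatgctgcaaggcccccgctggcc
Paics: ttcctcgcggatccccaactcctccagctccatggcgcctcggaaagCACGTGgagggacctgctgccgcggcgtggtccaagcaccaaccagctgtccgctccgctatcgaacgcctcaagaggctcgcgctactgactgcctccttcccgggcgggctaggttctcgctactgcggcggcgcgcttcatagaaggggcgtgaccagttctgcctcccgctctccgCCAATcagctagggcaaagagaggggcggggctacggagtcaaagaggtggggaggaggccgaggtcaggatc
The Ppat window held 2 E2F matches, which begin 211 and 158 bases before the start, and the Paics window held 1 E-box and 1 CCAAT box.

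The other enzymes of the route to inosine monophosphate had smaller differences. Gart and Pfas, which act between Ppat and Paics, had log2 fold changes of -0.10 and 0.11, Adsl 0.21, and Atic, which closes the ring, -0.25. Their groups overlapped and the limma adjusted p lay between 0.660 and 0.926. Gart, Pfas and Adsl had mean levels of 1.91, 1.31 and 1.97, of which that of Pfas was near the array medians and the others near the upper quartile of the arrays (1.90 to 2.02).

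At the branch to adenine and guanine nucleotides, Gmps (GMP synthetase) had a log2 fold change of -0.27 and Adss (adenylosuccinate synthetase) -0.09. Impdh1, a minor IMP dehydrogenase in most tissues, read 1.63, 1.41 and 1.37 against 1.33, 1.27 and 1.38, all near the array medians, a log2 fold change of 0.14 (limma adjusted p = 0.775). The salvage enzyme gene Hprt, which returns hypoxanthine and guanine to the nucleotide pool, read 7.05, 7.08 and 7.09 in the knockout arrays against 7.47, 7.72 and 7.75 in the wild type arrays. The 3 knockout samples differed by less than 0.05, and every wild type sample was above them. The difference was -0.57 on the log2 scale (SE 0.11), a 1.48-fold difference (limma adjusted p = 0.202), and it was -0.50 after renewed quantile normalization. Aprt, which salvages adenine, had -0.10 with overlapping groups.

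In pyrimidine synthesis the enzymes up to uridine monophosphate had groups that overlapped. Cad, the 3-activity protein of the first steps, read 2.04, 1.94 and 1.30 against 1.42, 1.73 and 1.48, a log2 fold change of 0.21 (limma adjusted p = 0.817). Knockout replicate 3 was the lowest of all arrays, and without it the value was 0.44. Dhodh, the mitochondrial enzyme that makes orotate, read 1.01, 1.34 and 1.29 against 1.47, 1.41 and 1.18, near the floor in every array (log2 fold change -0.14, limma adjusted p = 0.820). Umps, which makes uridine monophosphate, read 2.33, 2.20 and 2.34 against 1.63, 2.74 and 3.26. Wild type replicate 1 was the lowest of the 6 samples and replicate 3 the highest, and the log2 fold change of -0.25 became -0.71 without the former and 0.10 without the latter.

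The CTP synthetases convert uridine to cytidine nucleotides and are encoded by a pair of genes. Ctps2 read 2.55, 2.51 and 2.52 in the knockout arrays against 2.81, 3.33 and 3.33. The knockout samples were again within 0.05 of each other and below every wild type sample, with a log2 fold change of -0.63 (SE 0.15), a 1.55-fold difference (limma adjusted p = 0.287). Renewed quantile normalization gave -0.45, and the groups stayed apart. Ctps read 2.32, 2.01 and 1.96 against 2.17, 2.66 and 2.39, so the groups overlapped (log2 fold change -0.31, limma adjusted p = 0.632). Whether the 2 genes differed from each other was not tested. Uck2, a uridine and cytidine kinase of salvage, had 0.03, and its second probe set 0.09.

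Of the folate enzymes, 4 of 5 read higher on average in knockout liver, though none passed the threshold and no difference between branches was tested. Mthfd2, the mitochondrial methylenetetrahydrofolate dehydrogenase, read 5.13, 5.02 and 4.46 in the knockout arrays against 3.79, 4.72 and 5.12. Wild type replicate 1 was by far the lowest, and the groups otherwise overlapped. The log2 fold change was 0.32 (SE 0.32, limma adjusted p = 0.834), and -0.05 without wild type replicate 1. Shmt2, the mitochondrial serine hydroxymethyltransferase, read 2.54, 2.67 and 2.66 against 2.70, 2.46 and 2.20 (log2 fold change 0.17), and its cytosolic counterpart Shmt1 read 1.85, 2.11 and 1.68 against 1.59, 1.88 and 2.03 (log2 fold change 0.04). Mthfd1, the cytosolic enzyme of 3 folate reactions, read 2.08, 2.75 and 2.54 against 2.25, 2.66 and 3.34. Its log2 fold change of -0.30 rested on wild type replicate 3, without which it was -0.0012. Mthfd1l had 0.05. All 5 had groups that overlapped, with limma adjusted p from 0.792 to 0.970.

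Wild type replicate 1 read lower than the other wild type samples for most of these genes and for most well expressed genes, in some by a small margin. It was the lowest of the 3 wild type arrays for 28 of the 35 members (80%), as it was for 38.1% of all genes and for 77.2% of the well expressed ones. The mean level over the 35 genes was 3.28, 3.32 and 3.28 in the knockout arrays and 3.20, 3.60 and 3.71 in the wild type arrays, so wild type replicate 1 was the lowest of all 6. Without it, 17 members (48.6%) were lower in every knockout array than in every remaining wild type array, where 17.2% of all genes and 53.2% of the well expressed ones were. They included 8 purine genes, namely Prps1, Prps2, Ppat, Paics, Gmps, Atic, Adss and Hprt. In that fit 3 members passed the threshold, where 0.471% of all genes did so on the lower side. They were Rrm1 (-0.81, limma adjusted p = 0.0487), Prps1 and Ctps2 (-0.80, limma adjusted p = 0.0399). When any other array was left out, between 4 and 8 members were separated on the lower side, and no member passed. The share of all genes separated there was 12.1%, 11.9% and 11.3% without knockout replicates 1, 2 and 3 and 9.97% and 10.9% without wild type replicates 2 and 3. The share with an unadjusted p under 0.05 on the lower side was 5.67%, 5.77%, 4.79%, 3.95% and 4.46% in the same order, beside 11.2% without wild type replicate 1, and the share that passed was 0.00502%, 0.01%, 0.00502%, 0% and 0.00502%. With the replicate number as a block, 7 members and 6.61% of all genes had an unadjusted p under 0.05 on the lower side, and with array weights 14 members and 9.93% of all genes. After centring on well expressed genes it was 2 members and 1.32% of all genes on the lower side and 3 members and 13.2% on the higher, and 1 member and 14.9% of all genes were separated on the higher side. Wild type replicate 1 also had the lowest 90th percentile of the wild type arrays, as given above, and its part in these values was not tested.

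**Figure D4:**
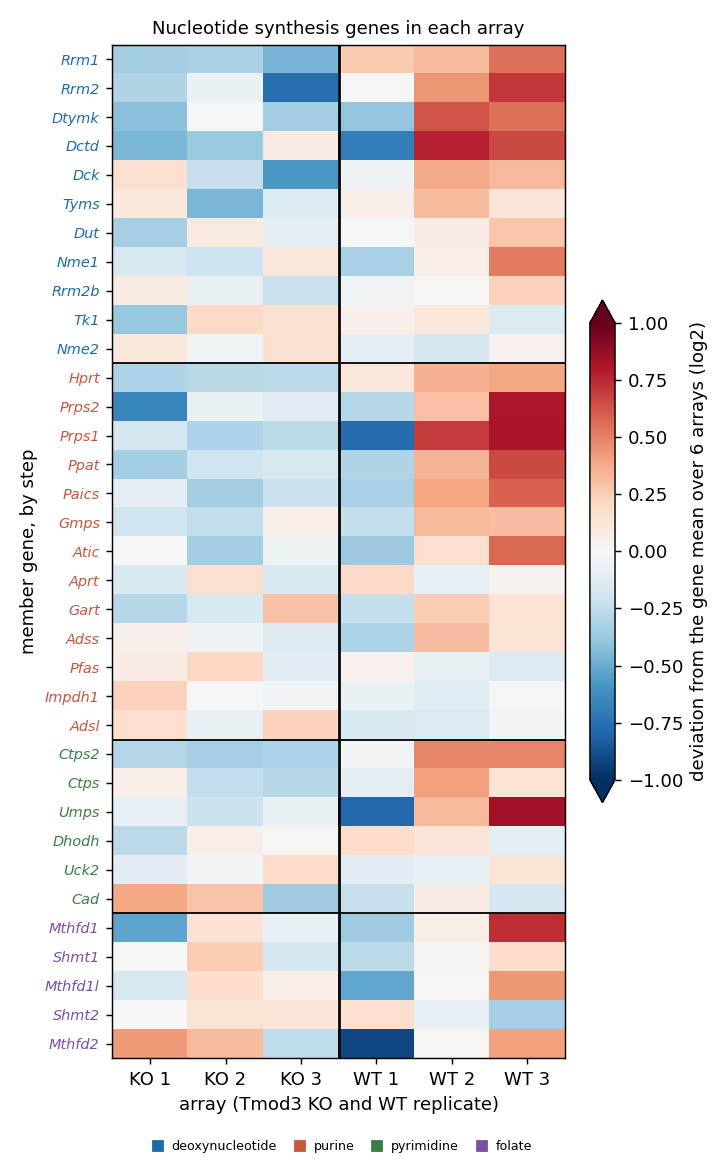
Deviation of each gene's value from its own mean over the 6 arrays (log2, red above and blue below, colours ending at 1), with genes by step and arrays by replicate. Wild type replicate 1 is blue for many genes that are red in wild type replicates 2 and 3, among them Dctd, Prps1 and Umps.

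**Figure D5:**
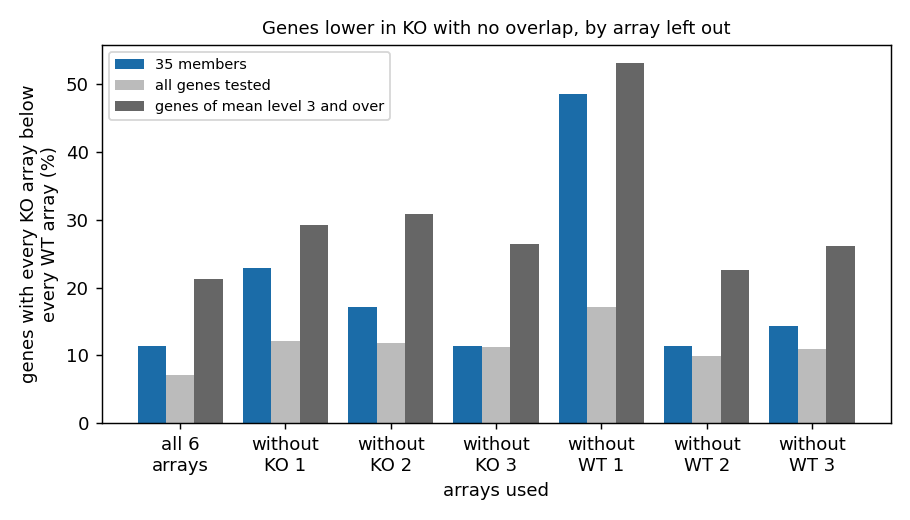
Share of genes (%) with every knockout array below every wild type array, with all 6 arrays and with each array left out, for the 35 members (blue), all genes tested (light grey) and well expressed genes (dark grey). The members' share is 11.4% with all arrays and 48.6% without wild type replicate 1, below the well expressed genes in both cases.

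The members on the X chromosome are Prps1, Prps2, Hprt and Ctps2, and all 4 had negative log2 fold changes. The samples were not all of one sex. Xist, the RNA of the inactive X chromosome, read 1.03 in knockout replicate 2 and 5.79 to 7.67 in the other 5 arrays, and the Y-linked gene Eif2s3y read 4.21 in knockout replicate 2 and 0.90 to 1.30 in the others. Without knockout replicate 2 the log2 fold changes were -0.46 for Prps1, -0.66 for Prps2, -0.57 for Hprt and -0.62 for Ctps2, about as large as with it. The 180 X-linked genes whose mean level was 2 or more had a median of -0.25, and the 4476 other genes of that level had -0.18. The shares with a negative value were close, 77.2% of these X-linked genes and 76.5% of the others.

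Further genes of nucleotide metabolism also had 0 members past the threshold (limma). For the counts below, an unadjusted limma p under 0.05 was found on the lower side for 6.44% of all genes and 26.6% of well expressed ones. On the higher side the shares were 2.59% and 2.28%. Of 22 measured salvage genes and nucleotide kinases, 4 were lower with an unadjusted p under 0.05 and 0 higher. They were the mitochondrial adenylate kinase gene Ak3 (-0.31), the guanylate kinase gene Guk1 (-0.54), Pnp, a purine nucleoside phosphorylase gene (-0.30), and the UMP and CMP kinase gene Cmpk1 (-0.40). Guk1 was dim, at 1.68, 1.47 and 1.28 in knockout and 1.84, 1.72 and 2.49 in wild type liver. Only wild type replicate 3 was above the upper quartile of the arrays. Of 17 genes of breakdown and pool control, 1 was lower, the pyrimidine nucleotidase gene Nt5c3 (-0.52), and 1 higher, Dpys (0.27). Dpys read 1.32 to 1.41 in knockout and 1.05 to 1.15 in wild type liver, at or below the array medians. Samhd1, which degrades deoxynucleotides, read 4.42, 4.02 and 4.30 against 4.26, 4.79 and 4.69, a log2 fold change of -0.33 with overlapping groups. Of 16 other folate and serine genes, 1 was lower, Ggh (-0.45), which trims the glutamate tail of folates, and 1 higher, Amt of the glycine cleavage system (0.26, at levels of 1.35 to 1.71). Among 17 regulators of these enzymes, Tfdp2, a dimer partner of E2F factors, read 5.27, 5.02 and 5.09 against 5.71, 5.72 and 5.74 (log2 fold change -0.60, limma adjusted p = 0.181). Max (-0.39) and Rbl1 (-0.44) were also lower and Myc (0.49) higher at an unadjusted p under 0.05.

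Genes of dividing cells and of the main liver cell types also read lower on average in knockout liver. Of well expressed genes, 80.6% were below 0, and on the lower side 26.6% had an unadjusted limma p under 0.05 and 21.3% had groups apart. Over all genes these shares were 48.4%, 6.44% and 7.1%. All 13 measured genes of dividing cells had negative log2 fold changes, with a median of -0.39 (8 with an unadjusted p under 0.05 and 5 with groups apart), and their summed level was 63.0 to 65.9 in the knockout arrays and 66.8 to 70.7 in the wild type arrays. Pcna (-0.50), the sliding clamp of DNA polymerase, had the smallest p of that list (limma adjusted p = 0.242). All 9 erythroid markers were negative, with summed levels of 40.4 to 43.7 against 43.8 to 47.7, as were 9 of 10 hepatocyte markers, with 56.5 to 66.5 against 67.2 to 71.6, and 8 of 9 macrophage markers, with 13.7 to 18.0 against 17.9 to 20.9. Knockout replicate 3 was the lowest array for all 4 lists. The megakaryocyte list had 3 of 4 below 0 (16.8 to 18.6 against 18.4 to 19.2), the neutrophil list 4 of 6 (10.1 to 10.9 against 10.2 to 12.0) and the endothelial list 1 of 6 (11.1 to 12.0 against 10.8 to 11.3). The early progenitor list had 1 of 4 below 0 (6.45 to 7.04 against 5.87 to 7.13), and the lymphoid list 0 of 3 (3.91 to 4.21 against 3.08 to 3.78). The median of the mean levels was 1.56 for the macrophage, 1.70 for the neutrophil and 1.69 for the endothelial list. For the early progenitor list it was 1.71 and for the lymphoid list 1.23. These are below the upper quartile of the arrays (1.90 to 2.02), so many of these markers are close to the floor of the measurement. The erythroid and hepatocyte lists had 5.15 and 7.50. The part of the marker lists and of the dividing cell genes in the values of the nucleotide genes was not tested. In RNA of a whole liver, fewer cells of a type and less RNA per cell cannot be told apart.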

How the data were processed

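Total RNA of 6 fetal liver samples was extracted with Trizol and biotin-labelled, per the labels' protocols. RMA, named in the submitters' processing notes without a version, gave the authors' deposited values, 1 for each probe set on each array. The sources used here do not say whether a further step followed RMA. The log base was read as log2 from the range of the deposited values. Of 28853 probe sets, 21789 had 1 gene symbol in the platform annotation, and only these were used. No dim gene was filtered out.

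Knockout and wild type arrays were compared over all 19938 genes with limma 3.58.1 under R 4.3.3 (two-sided, lmFit then eBayes, no covariates, Benjamini-Hochberg adjustment, threshold 0.05), after the script was tested on simulated data. Alternatives were a replicate block, leaving out each array, quantile normalization, median centring, probe set means, a filter at a mean level of 2, trend with robust fitting, array weights and a threshold of 0.1. Centring on well expressed genes was chosen after seeing the data.

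Members and lists were chosen with earlier results of these data known. Every member is named. Array values are given for members with separated groups or an unadjusted p under 0.05 and for Rrm2b, Tyms, Tk1, Prps1, Ppat, Impdh1, Cad, Dhodh, Umps, Ctps, Shmt1, Shmt2, Mthfd1 and Mthfd2 whatever their values. Those of Paics and Dctd were added after their values were seen. Of each wider list up to 4 genes with the smallest p, and Samhd1, are named, and genes without a probe set of their own were not analysed here. Arrays have no read depth, and p-values measure the spread between these samples.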

Additional observations from a re-analysis of the deposited data

How the results depend on the processing

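Rrm1, Rrm2, Hprt and Ctps2 kept a negative log2 fold change under all 14 alternatives. Their groups do not overlap, so leaving out an array or weighting the arrays could not change that sign. The replicate block, trend with robust fitting, the filter and, for these genes, probe set means leave a log2 fold change unchanged. Only renewed quantile normalization and the centrings could have reversed it. Over single members and settings, 473 of 482 values kept their direction and side of the threshold or moved by less than the spread between replicates. That count includes settings that cannot change the direction. With 1 array left out, the members past the threshold numbered 0 to 3 on the lower side and 0 to 0 on the higher, those with an unadjusted p under 0.05 numbered 4 to 15 and 0 to 1, and those without overlap 4 to 17 and 0 to 3. Over all genes, 0 to 94 then passed on the lower side and 0 to 1 on the higher, against 3 and 0 with all arrays. The medians then ranged from -0.38 to -0.09 for all members, from -0.39 to -0.24 for the deoxynucleotide, -0.45 to -0.10 for the purine, -0.25 to -0.059 for the pyrimidine and -0.08 to 0.14 for the folate genes. Renewed quantile normalization moved the deoxynucleotide median to -0.11 and gave 3 genes past the threshold on the higher side. With array weights 14 members (9.93% of all genes) had an unadjusted p under 0.05 on the lower side, and 10 genes passed on the lower and 1 on the higher side. Centring on well expressed genes reversed the median of all members to 0.040, of purine genes to 0.0084 and of pyrimidine genes to 0.067, and moved the deoxynucleotide median to -0.063. Members with an unadjusted p under 0.05 were then 2 lower (1.32% of all genes) and 3 higher (13.2%), 1 member was separated on the higher side (14.9% of all genes), and 33 genes passed on the lower and 78 on the higher side. This setting adds the same amount to dim genes, which had not shifted. Deviations from the group means correlated at 0.11, 0.06 and -0.11 for replicates 1, 2 and 3, and from -0.19 to 0.19 between unlike numbers. With 3 arrays a group these values cannot show whether the replicate numbers pair the samples. With the replicate number as a block, 7 members had an unadjusted p under 0.05 on the lower side (6.61% of all genes) and 0 genes passed. The causes of the other shifts were not tested. Levels near the array medians of 1.36 to 1.43 limit what can be seen for the dimmest members.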
